A study of Mus musculus with 4 samples.

Results

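The myeloid, erythroid and megakaryocyte programme genes are 47 genes named for the regulators, receptors, granule proteins, membrane proteins and platelet proteins of these lineages, of which 22 are myeloid, 13 erythroid, 9 megakaryocyte and 3 mast cell and basophil genes. Their chromatin was followed by ATAC-Seq in long-term hematopoietic stem cells (LT-HSCs) of mice with and without Sin3B. Members were found by gene name in the deposited table of differentially accessible peaks, which held 5332 peaks named for 4376 genes. It named a peak for 17 of the 47 members and 25 peaks in all, comprising 8 peaks of 6 myeloid genes, 11 peaks of 7 erythroid genes and 6 peaks of 4 megakaryocyte genes. The other 30 members had no peak in the table. The share of all annotated genes with a peak was not counted, so whether 17 of 47 is high or low was not tested. The experiment held 4 libraries, 2 labelled WT (Sin3B+/+) and 2 labelled KO (Sin3B-/-), and each was a pool of LT-HSCs from 2 mice, 8 mice in all. The Sin3B-/- mice carried floxed Sin3B alleles and Vav1-iCre, which deletes throughout the blood system from fetal life on, so that the deletion was neither confined to LT-HSCs nor acute. All mice were on a C57BL/6 background and were sampled at homeostasis, without treatment. Their age was not given for these libraries. The study writes its control mice as Sin3B+/+ and, elsewhere, as Sin3B F/F, and does not state whether they carried Cre. The LT-HSCs were sorted as lineage-negative, Sca-1-positive, cKit-positive, Flk2-negative, CD48-negative and CD150-positive marrow cells.

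Sin3B is a scaffold of a corepressor complex that carries histone deacetylases. ATAC-Seq reads accessibility because the Tn5 transposase inserts adapters into open DNA more readily than into DNA wrapped around nucleosomes. LT-HSCs keep parts of the regulatory DNA of their descendants open before the genes are strongly expressed. Lineage choice rests on transcription factors that oppose or assist each other. PU.1, encoded by Spi1, and the C/EBP factors drive granulocyte and monocyte fates, GATA1 with its cofactor FOG1 (Zfpm1) drives the erythroid and megakaryocyte fates, and KLF1 activates the red cell genes. NF-E2, a dimer with the small Maf proteins, serves megakaryocytes and red cells, and Bach1 competes for the same sites.

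Sequences of 5 peaks are shown because each carries a match to a motif of a factor that is itself a programme regulator or its partner. They are the central 300 bp of the peak on the plus strand of GRCm38, with all motif matches in capitals. The motifs searched on both strands were AGATAA for GATA factors, GAGGAAG for PU.1, TTGCNNAA for C/EBP, CCNCNCCC for KLF, TGTGGTT for RUNX, TGACTCA for NF-E2 and CCGGAAG for other ETS factors. PU.1 is itself an ETS factor, and matches of PU.1 and KLF may overlap. The first sequence is from the stronger upstream peak of Spi1 (chr2:91082927-91083226) and holds a C/EBP match, TTTTGCAA, and a pair of overlapping KLF matches. The second is from the peak downstream of Cebpe (chr14:54705877-54706176), the third from the peak of Zfpm1 with the largest change (chr8:122321641-122321940), and the fourth from an intronic peak of Bach1 (chr16:87699963-87700262). The last is from the promoter peak of Itga2b (chr11:102470001-102470300).
Spi1: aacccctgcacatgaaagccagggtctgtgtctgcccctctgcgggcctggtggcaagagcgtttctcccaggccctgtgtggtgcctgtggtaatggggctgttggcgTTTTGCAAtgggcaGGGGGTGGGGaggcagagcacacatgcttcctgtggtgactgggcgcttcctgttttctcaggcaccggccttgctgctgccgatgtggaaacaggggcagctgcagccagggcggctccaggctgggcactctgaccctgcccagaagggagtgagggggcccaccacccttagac
Cebpe: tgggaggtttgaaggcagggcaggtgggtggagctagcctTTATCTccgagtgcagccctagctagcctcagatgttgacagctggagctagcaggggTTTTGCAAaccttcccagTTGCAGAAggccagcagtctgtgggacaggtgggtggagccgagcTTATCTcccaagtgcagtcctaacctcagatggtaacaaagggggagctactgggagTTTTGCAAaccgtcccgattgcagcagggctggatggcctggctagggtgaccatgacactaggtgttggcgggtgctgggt
Zfpm1: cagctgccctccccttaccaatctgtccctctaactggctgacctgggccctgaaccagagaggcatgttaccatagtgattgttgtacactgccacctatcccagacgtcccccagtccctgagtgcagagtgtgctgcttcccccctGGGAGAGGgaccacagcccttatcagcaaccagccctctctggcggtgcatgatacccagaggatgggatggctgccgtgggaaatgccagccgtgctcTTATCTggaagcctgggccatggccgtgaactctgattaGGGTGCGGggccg
Bach1: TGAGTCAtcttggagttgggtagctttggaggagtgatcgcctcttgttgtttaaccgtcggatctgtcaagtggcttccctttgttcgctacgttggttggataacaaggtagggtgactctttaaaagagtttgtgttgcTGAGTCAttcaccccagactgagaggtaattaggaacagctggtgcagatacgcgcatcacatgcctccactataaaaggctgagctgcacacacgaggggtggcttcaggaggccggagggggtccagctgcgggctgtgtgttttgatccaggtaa
Itga2b: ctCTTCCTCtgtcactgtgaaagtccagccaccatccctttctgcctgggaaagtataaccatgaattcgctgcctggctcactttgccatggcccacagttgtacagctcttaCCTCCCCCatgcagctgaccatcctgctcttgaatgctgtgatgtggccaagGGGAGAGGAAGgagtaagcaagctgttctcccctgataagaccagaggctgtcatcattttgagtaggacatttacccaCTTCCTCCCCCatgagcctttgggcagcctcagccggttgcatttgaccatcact

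The 25 peaks that the table names for programme genes all had higher normalized levels in Sin3B-/- LT-HSCs, in all 3 lineages. In 25 of 25 peaks both Sin3B-/- libraries lay above both Sin3B+/+ libraries, and the lower Sin3B-/- value was 1.22 to 2.20 times the higher Sin3B+/+ value. Both Sin3B-/- libraries also lay above both Sin3B+/+ libraries in 95.7% of the table, which was selected for such differences. The median fold of the Sin3B-/- mean over the Sin3B+/+ mean was 1.68 over the 25 peaks. It was 1.79 in the 8 myeloid peaks, 1.62 in the 11 erythroid peaks and 1.71 in the 6 megakaryocyte peaks. The whole table had a median fold of 1.69, so the programme peaks rose by about as much as the table did. A rise of at least 2-fold was seen in 6 of the 25 peaks, or 24.0%, against 22.8% of the table.

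Each level is the authors' normalized value, a whole multiple of 1 step per library. Changes are given as log2 differences, the Sin3B-/- mean minus the Sin3B+/+ mean of log2(level + 1). A single standard error of 0.22 applied to every peak in the limma fit across the table, with n = 2 libraries per genotype. Peaks were called at a Benjamini-Hochberg adjusted p under 0.05 over all 5332 peaks. The call named 25 of 25 programme peaks as higher and 0 as lower in Sin3B-/- LT-HSCs. Over the table it named 95.7% as higher and 4.29% as lower. The table holds only peaks that the authors had already selected as different between these same libraries, so neither count is evidence beyond that selection. Without Sin3B-/- replicate 2 the median change was 0.75 over the programme peaks and 0.69 over the table. Without Sin3B+/+ replicate 2 it was 0.64 over the programme peaks and 0.63 over the table.

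**Figure D1:**
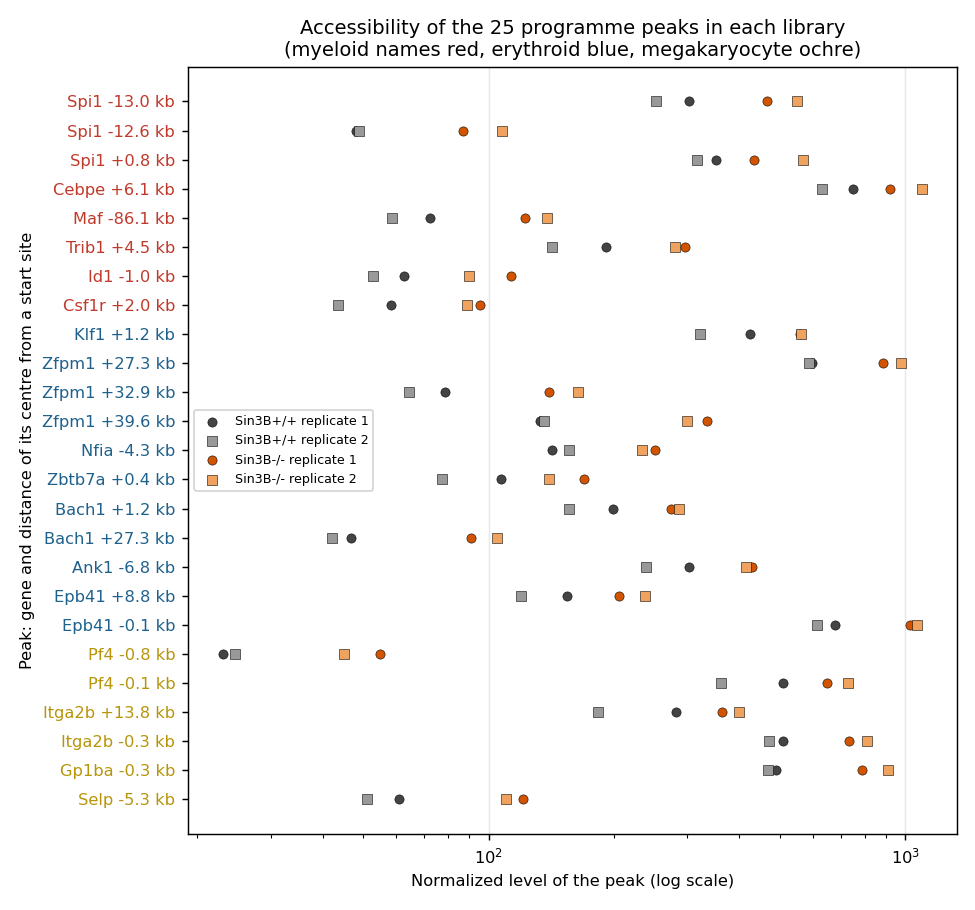
Normalized level (log axis) of the 25 programme peaks in each of the 4 libraries, 1 point per library, with each peak named by its gene and the distance of its centre from a start site of that gene. In all 25 rows both Sin3B-/- points lie to the right of both Sin3B+/+ points, by a gap of 1.22 to 2.20 times between the nearest points. The same order held in 95.7% of the table.

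The median change over the table was 0.76 log2 units, and it was also 0.76 over the programme peaks, with a range of 0.55 to 1.23. By lineage the median was 0.83 in myeloid, 0.70 in erythroid and 0.78 in megakaryocyte peaks. Of the 25 peaks, 12 lay above the table's median, comprising 6 of 8 myeloid, 3 of 11 erythroid and 3 of 6 megakaryocyte peaks. When every library was centred on its own median over the table, which lowered the median change by 0.75 log2 units, 0 of 25 programme peaks were called higher and 0 lower by limma. On that scale 7.01% of the table was called higher and 4.29% lower. An unadjusted p under 0.05 was reached by 3 of the 25 programme peaks, against 21.3% of the table. The smallest centred adjusted p among them was 0.098 (limma), in Zfpm1. In this table a shift shared by nearly all peaks and a difference in the libraries' scale factors cannot be told apart.

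**Figure D2:**
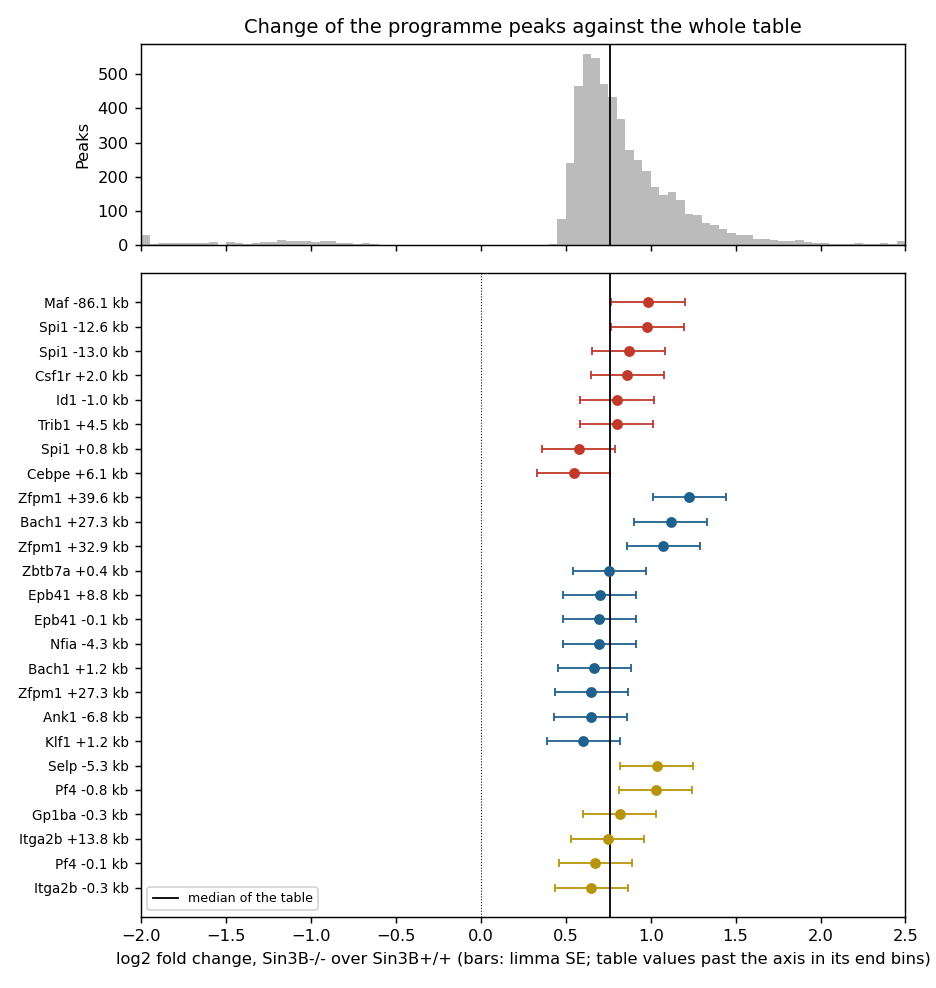
Upper panel, number of table peaks by log2 fold change of Sin3B-/- over Sin3B+/+. Lower panel, the same quantity for the 25 programme peaks with bars of 1 limma SE (0.22), ordered within each lineage. The vertical line is the table's median of 0.76, and 12 of the 25 points lie above it.

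Among the myeloid regulators, Spi1 had the most differential peaks. It encodes PU.1, whose dose sets myeloid against lymphoid and erythroid fate. The stronger of its 2 upstream peaks (chr2:91082845-91083307), 13020 bp before the start site, had levels of 303 and 253 in the Sin3B+/+ libraries and 466 and 551 in the Sin3B-/- libraries, a change of 0.87. Next to it, the peak at chr2:91083409-91083672 had 48.1 and 49.0 in Sin3B+/+ and 86.9 and 108 in Sin3B-/-, a change of 0.98. The genotypes did not overlap at either peak, and both Sin3B-/- libraries were likewise the higher in 95.7% of the table. The pair of Sin3B+/+ values of the second peak differed by less than 1 unit. An upstream element on this side of Spi1 is a known enhancer of the gene in HSCs, but whether these peaks are that element was not tested. Both lie in intergenic sequence by the basic transcripts of GENCODE, although the gene interval in the table begins before them, and the stronger one is nearest to a start site of Slc39a13. The third peak (chr2:91096420-91097420), over the first exon and 824 bp after the start site, read 351 and 316 against 434 and 569. Its change, 0.57, was the smallest of the 3 (limma adjusted p 0.00836, against 0.00014 at the stronger upstream peak). With a single standard error for all peaks, these p-values restate the changes.

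Cebpe, a C/EBP factor of late granulocyte maturation, had the strongest myeloid peak and the smallest change of all 25. This peak (chr14:54705676-54706376), 6148 bp after the start site and beyond the end of the gene, had levels of 751 and 631 in Sin3B+/+ and 920 and 1100 in Sin3B-/- libraries. The means were 691 ± 85.1 and 1010 ± 127 (SD, n = 2 each), a 1.46-fold rise and a change of 0.55, with an adjusted p of 0.0118 (limma). Leaving out replicate 2 of either genotype gave this peak a change of 0.42. Its sequence, printed above, carries an imperfect tandem repeat. Bases 29 to 126 align with bases 151 to 246 with 79 of 103 columns identical (76.7%). Each copy holds a GATA match on the minus strand and a C/EBP match of the same letters as in Spi1. The GATA matches lie 121 bp apart and these C/EBP matches 120 bp apart.

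The remaining myeloid peaks were weaker and rose by 0.80 to 0.98. Maf encodes a basic leucine zipper factor of macrophages, and its peak (chr8:115793566-115794178) lay 86078 bp upstream of the gene. It rose from 72.6 and 58.6 to 122 and 138, a change of 0.98, and its central 300 bp had the lowest GC content of the 25 peaks, 34.0%. Trib1, a pseudokinase that targets C/EBP-alpha for degradation, had a peak over its UTR (chr15:59652815-59653394) with 192 and 142 in Sin3B+/+ and 296 and 280 in Sin3B-/-, a change of 0.80. Id1, an inhibitor of basic helix-loop-helix factors, had a peak 1039 bp upstream (chr2:152735039-152735385) with 62.5 and 52.8 against 113 and 90.0, also 0.80. The same peak held 23 CpG dinucleotides in 300 bp, against a table median of 7. Csf1r, the receptor for macrophage colony-stimulating factor, had an intronic peak (chr18:61107658-61108004) that read 58.2 and 43.5 against 95.6 and 89.0, a change of 0.86. It was the only member among the receptors of the myeloid list with a peak in the table.

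Erythroid regulators held 8 of the 11 erythroid peaks, and Zfpm1 alone held 3. All 3 lie within the gene on chromosome 8 and are intronic. The peak 39649 bp after the start site (chr8:122321528-122322053) had the largest change of the 25. It read 133 and 136 in the Sin3B+/+ libraries and 334 and 299 in the Sin3B-/- libraries, so each genotype's values lay close together and far from the other's. The means were 134 ± 2.49 and 316 ± 24.5 (SD, n = 2 each), a 2.35-fold rise and a change of 1.23, at the 89.9th percentile of the table. After centring the change was 0.48. The peak at chr8:122314860-122315304 rose from 78.7 and 64.4 to 139 and 164, a change of 1.08. The strongest peak of the gene (chr8:122309059-122309914) read 596 and 589 against 884 and 979, a change of 0.65. For the other 2 the nearest start site is that of Gm45353.

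Klf1, the erythroid Krüppel-like factor, had a single peak over its coding exons (chr8:84902565-84903658), 1183 bp after the start site. It read 423 and 321 in Sin3B+/+ and 559 and 561 in Sin3B-/- libraries, a change of 0.60. The Sin3B-/- values were nearly equal, the Sin3B+/+ values differed more, and the call was lost without either replicate 2. Its central window was the richest in GC of the 25, at 71.0%, with 29 CpG dinucleotides. Bach1, a heme-regulated repressor, had peaks 1167 bp (chr16:87699782-87700442) and 27303 bp (chr16:87725896-87726601) after its start site, both intronic. The first rose from 199 and 156 to 274 and 287, a change of 0.67. The second, the weakest of the 25 per kb of peak with a level of 101 per kb, rose from 46.8 and 42.2 to 90.6 and 105, a change of 1.12. Zbtb7a, which encodes a repressor of fetal globin, had an intronic peak (chr10:81138209-81138543) with 107 and 77.1 against 170 and 140, a change of 0.76. Nfia, a factor that favours erythroid over granulocyte fate, had a peak (chr4:97773139-97773564) with 142 and 156 against 251 and 233, a change of 0.70. This Nfia peak was one of 4 programme peaks in which Sin3B+/+ replicate 2 exceeded replicate 1.

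Erythroid effectors with peaks were both proteins of the red cell membrane skeleton. Ank1 encodes ankyrin, which ties the spectrin network to the membrane, and its intronic peak (chr8:23027685-23028931) rose from 302 and 238 to 428 and 414, a change of 0.65. Epb41 encodes the membrane protein that joins spectrin to actin, and had a promoter peak (chr4:132075142-132075644) and an intronic peak (chr4:132039970-132040659). The promoter peak read 679 and 615 in Sin3B+/+ and 1027 and 1070 in Sin3B-/- libraries, and had the highest level per kb of the 25 peaks, 1685. The intronic peak read 154 and 120 against 206 and 237. Both changed by 0.70.

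Megakaryocyte peaks belonged to effectors, and 4 of the 6 lay in promoters. Pf4, the platelet chemokine platelet factor 4, had adjacent peaks on chromosome 5. The weaker, upstream of the start site, read 23.0 and 24.7 in Sin3B+/+ and 55.0 and 45.0 in Sin3B-/- libraries, a change of 1.03. The stronger (chr5:90771822-90772784), over the start site, read 510 and 362 against 649 and 727, a change of 0.67. Sin3B+/+ replicate 1 was the closer of the controls to the Sin3B-/- libraries, and the call was lost when either replicate 2 was left out (limma adjusted p 0.0604 without the Sin3B+/+ one and 0.065 without the Sin3B-/- one).

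Itga2b encodes integrin alpha-IIb (CD41), a subunit of the fibrinogen receptor that is also found on early blood progenitors. Its promoter peak (chr11:102469757-102470543) read 509 and 472 in Sin3B+/+ and 732 and 811 in Sin3B-/- libraries, a change of 0.65. The window printed above, which holds 3 PU.1 and 3 KLF matches, lies in this peak. An intronic peak (chr11:102455650-102456520), 13798 bp after the start site, read 281 and 183 against 364 and 400, a change of 0.75. Gp1ba, a subunit of the von Willebrand factor receptor, had a promoter peak (chr11:70638407-70639336) with 489 and 469 against 787 and 907, a change of 0.82, larger than in the other promoter peaks apart from the weak peak of Pf4. Selp encodes P-selectin of platelet granules, and its peak (chr1:164109592-164110328), 5304 bp upstream, read 60.9 and 51.1 against 121 and 110, a change of 1.04.

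Within a programme gene the weakest peak changed more than the strongest, but in Zfpm1 the peak of intermediate level changed most. In 6 of the 6 programme genes with at least 2 differential peaks (Spi1, Zfpm1, Bach1, Epb41, Pf4 and Itga2b), the weakest peak had a larger log2 change than the strongest, although in Epb41 the 2 values were nearly equal. The same held in 516 of 702 genes of the table with at least 2 peaks higher in Sin3B-/-, or 73.5%. Over the 25 programme peaks level and change had a Spearman correlation of -0.72, and over the 5103 table peaks higher in Sin3B-/- it was -0.68. These are descriptions across peaks that share libraries, and each peak had to pass the authors' test to be in the table. The part of that selection in the relation was not tested.

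**Figure D3:**
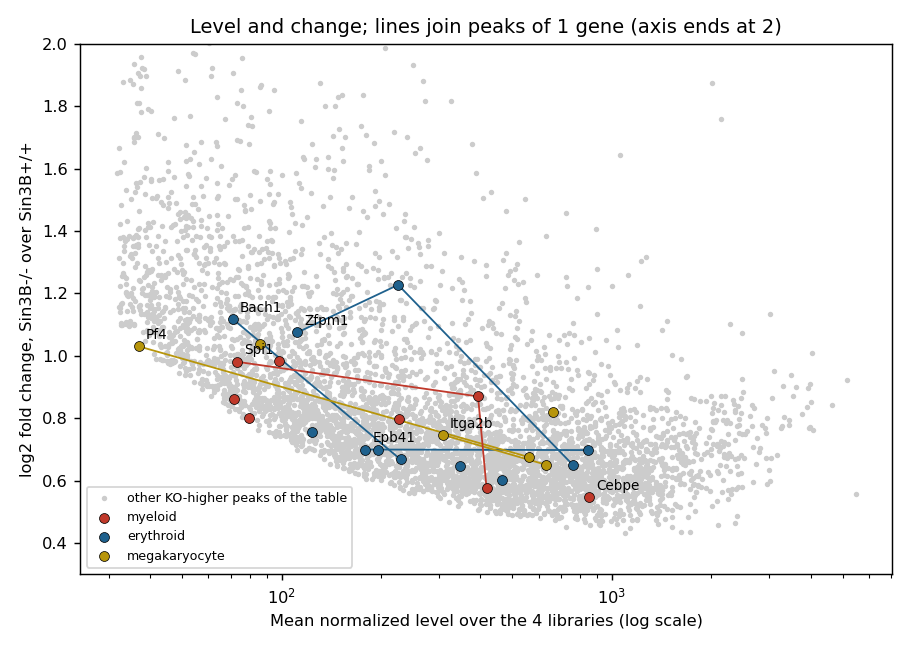
Mean normalized level over the 4 libraries (log axis) against the log2 fold change of Sin3B-/- over Sin3B+/+, for the 25 programme peaks (coloured by lineage) and the other table peaks higher in Sin3B-/- (grey; the axis ends at 2). Lines join peaks of 1 gene, and in all 6 such genes the weakest peak lies above the strongest, nearly level in Epb41.

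Sin3B+/+ replicate 1 exceeded replicate 2 in 21 of the 25 peaks (84.0%, and 87.7% of the table), and Sin3B-/- replicate 2 exceeded replicate 1 in 16 (64.0%, and 72.0% of the table). The replicates of a genotype thus differed in the same direction across most peaks. Values in each library were whole multiples of 1 step, and the programme peaks spanned 45 to 3293 steps, so none lay near the floor of 3 steps (a level of 0.684 to 3). Summed over the table the Sin3B+/+ libraries held 8705855 and 4836132 steps and the Sin3B-/- libraries 4541377 and 3102888. A step was a level of 0.228 and 0.343 in the Sin3B+/+ libraries, and of 0.625 and 1 in the Sin3B-/- libraries. In steps the Sin3B+/+ sums were thus the higher. All levels compared here are values after this scaling, and whether the scaling was right was not tested. If a step is a read, the sums are the depth within these peaks, and how many reads the libraries held outside them is not known here.

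The positions of the programme peaks were described by lineage, without a test on these small numbers. A promoter, taken as 1000 bp before to 100 bp after a start site, held 5 of the 25 peaks, or 20.0% (95% Wilson interval 8.86 to 39.1%, for counting error only), against 33.3% of the table. They were 0 of 8 myeloid, 1 of 11 erythroid and 4 of 6 megakaryocyte peaks. Introns held 10 of the 25 (40.0%, against 37.0% of the table), of which 8 were erythroid, and intergenic sequence held 7 (28.0%, against 22.3%), of which 5 were myeloid. The lineage counts depended on the definition. With a promoter of 2500 bp on either side, 3 of 8 myeloid, 4 of 11 erythroid and 4 of 6 megakaryocyte peaks lay in one, and the share over all 25 was 44.0%, against 49.6% of the table. The median GC content of the central 300 bp was 53.0%, against 54.0% in the table, and 46.5% in the megakaryocyte peaks, which had a median of 2.5 CpG dinucleotides. Peak width was similar, with a median of 661 bp against 685 bp.

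Motif matches in the central 300 bp were compared with the share of all 5332 windows. A GATA match was present in 6 of the 25 peaks (24.0%, against 17.9% of the table), in Bach1, Cebpe, Csf1r, Epb41 and Zfpm1, the last in 2 peaks. A C/EBP match was present in 6 (24.0%, against 10.4%), 1 each in Bach1, Cebpe, Id1, Maf, Pf4 and Spi1. NF-E2 matches were found in 3 (12.0%, against 8.03%), among them peaks of Bach1 and Trib1. The Bach1 window holds 2 of them, at bases 1 to 7 and 143 to 149. A KLF match was present in 13 (52.0%, against 46.1%). PU.1 matches were present in 2 (8.0%, against 22.5%), both megakaryocyte, in Itga2b and Pf4. The windows of the 3 Spi1 peaks did not hold the searched letters GAGGAAG, and other forms were not searched. RUNX and ETS matches were each present in 1, in different peaks of Zfpm1 (4.0%, against 11.8% and 9.26%). With 25 peaks a single peak is 4.0%, and a match of letters is not a bound site. Each factor was searched by 1 pattern of letters, so a window without a match may hold other forms of its site.

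The 30 members without a peak in the table included Gata1, Gfi1b, Epor, Tfrc, Alas2 and Sptb among erythroid genes, and Gp9, Itgb3, Cd9, Mafg and Mafk among megakaryocyte genes. Among myeloid genes they were the C/EBP genes Cebpa, Cebpb, Cebpd and Cebpg, Irf8, the receptor genes Csf2ra, Csf2rb, Csf3r, Itgam, Fcgr3 and Fcer1g, and the granule and lysozyme genes Mpo, Elane, Prtn3, Ctsg and Lyz2. Ms4a2, Cpa3 and Cd63, the mast cell and basophil genes, were also without one. A missing row says only that the table used here names no peak for the gene. The table holds fewer peaks than the study describes as differential, and neither those outside it nor accessible peaks without a difference were analysed here, so a gene without a row may still have a differential peak. The closest differential peak of any name lay within 10 kb of a start site in 5 of the 30 (Cebpa, Cebpb, Elane, Mafk and Gp9), within 50 kb in 13 and beyond 100 kb in 9, with a median of 57046 bp. Alas2, which makes heme in red cells, had the farthest, at 973296 bp.

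**Figure D4:**
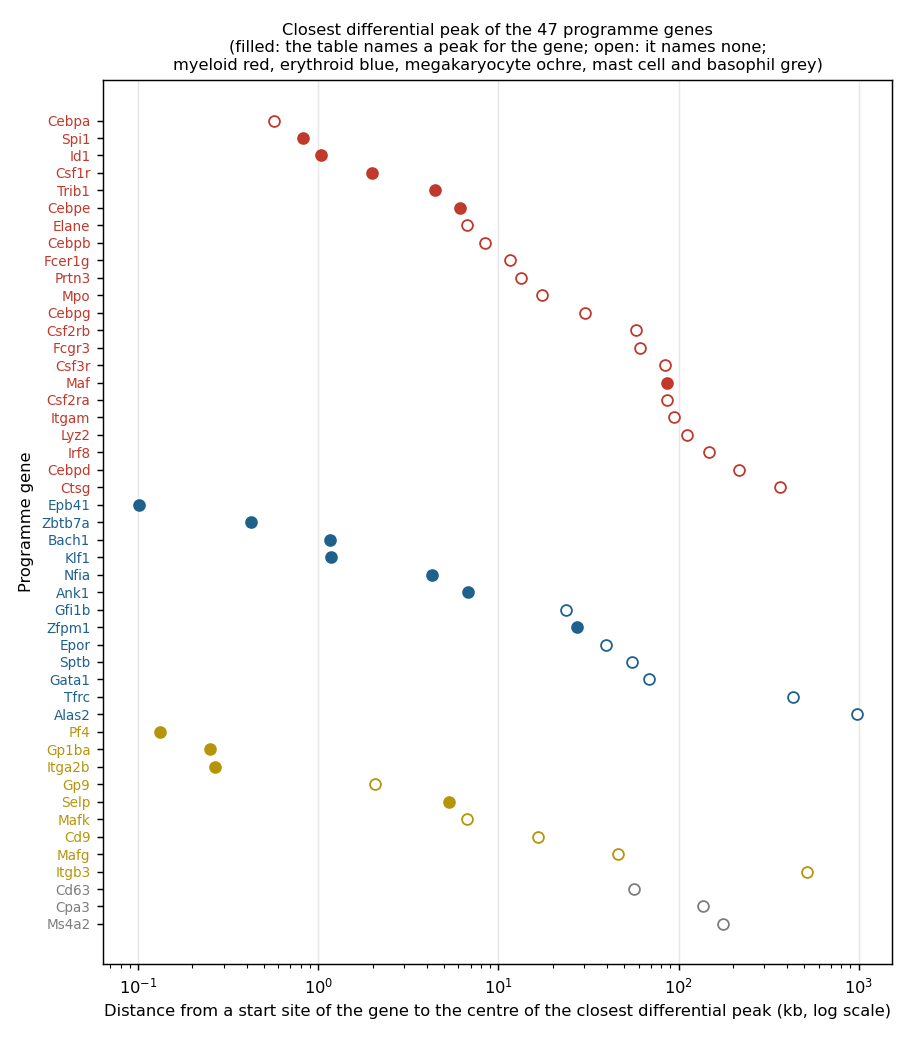
Distance (kb, log axis) from a start site of each of the 47 programme genes to the centre of the closest differential peak, filled where the table names a peak for the gene and open where it names none. Of the 30 open points, 5 lie within 10 kb and 9 beyond 100 kb.

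Naming by the nearest start site gave programme genes 6 further peaks that the table names for other genes. Cebpa, which encodes C/EBP-alpha, the factor that starts granulocyte and monocyte differentiation, had a peak centred 570 bp before its start site (chr7:35118031-35119416), named in the table for Gm45091. It read 361 and 290 in Sin3B+/+ and 528 and 548 in Sin3B-/- libraries, a change of 0.73. A peak 8469 bp upstream of Cebpb (chr2:167679892-167681001) read 227 and 159 against 311 and 338, a change of 0.76. A pair of peaks upstream of Epb41 changed by 0.62 and 0.71.

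Mafk and Cd9, both megakaryocyte genes, held the 2 of these peaks that were also called after centring. Mafk encodes a small Maf subunit of NF-E2, and the peak 6698 bp after its start site (chr5:139803684-139804740) lies beyond the end of the gene and is named for Tmem184a. It read 161 and 168 in Sin3B+/+ and 399 and 471 in Sin3B-/- libraries, a 2.65-fold rise and a change of 1.39, and after centring 0.64 with an adjusted p of 0.0239 (limma). Cd9 encodes a tetraspanin of platelets, and the peak 16566 bp upstream (chr6:125511071-125511643), named for Gm26728, was the only lower one. It read 201 and 188 in the Sin3B+/+ libraries and 93.1 and 116 in the Sin3B-/- libraries, a fold of 0.538 and a change of -0.89 (limma adjusted p 9.08e-05), and after centring -1.65. These peaks were singled out after their values were seen, and a nearest start site does not show which gene a peak serves. Of the 26 peaks whose nearest start site is a programme gene's, 25 were higher and 1 lower in Sin3B-/-. For 5 peaks that the table names for a member (of Epb41, Itga2b, Spi1 and Zfpm1) the nearest start site is another gene's.

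Further genes of the same lineages, from lists written with earlier results of these data known, were mostly higher in Sin3B-/- as well, as was the table, with 95.7% called higher and 4.29% lower. Of 45 other myeloid genes 10 had a peak, and 9 of the 10 peaks were called higher and 1 lower, with a median change of 0.83. The exception was F13a1, which encodes a subunit of coagulation factor XIII, with 94.0 and 83.6 in Sin3B+/+ and 36.9 and 51.0 in Sin3B-/-, a change of -1.01. The largest rise among them was at the promoter of Cd68, a lysosomal protein of macrophages, with 85.3 and 53.5 against 201 and 212, a change of 1.60. Of 49 other erythroid genes 16 had 24 peaks, all called higher, with a median of 0.77. Slc25a38, a mitochondrial glycine carrier needed for heme synthesis, rose from 26.7 and 24.3 to 70.6 and 96.0, a change of 1.65, and the smallest change was 0.57, in Gypc (glycophorin C). Of 33 other megakaryocyte genes 8 had 16 peaks, all called higher, with a median of 0.91, led by Tubb1, the platelet beta-tubulin, at 1.37, and lowest at 0.58 in Nbeal2. Of 14 other mast cell and basophil genes 4 had 8 peaks, all called higher, with a median of 0.99, led by Cd200r3 at 1.77 and lowest at 0.52 in Gata2, a factor that HSCs also need. After centring, 1 myeloid (Cd68), 2 erythroid (Slc25a38 and Hbb-bt), 1 megakaryocyte (Tubb1) and 1 mast cell and basophil peak (Cd200r3) were called higher and 1 lower (F13a1). On that scale 7.01% of the table was called higher and 4.29% lower, so nothing particular to these lists is read from the counts. The shares of listed genes with a peak were likewise not compared with all genes. Hbb-bt has a near-identical neighbour. Its peak is intergenic, 4851 bp after the start site, and whether the reads there were assigned to the right copy was not tested.

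Neither the deletion nor the identity of the cells could be read from these data. No peak of the table was named for Sin3b or nearest to its start site (0 of 5332). Of the genes for the surface proteins that the sort selected, Slamf1 (CD150) had 1 peak, with a change of 0.81, and Kit and Ly6a had none. Flt3 and Cd48, which the sort selected against, had none, and neither did any of 13 lineage and pan-leukocyte genes. The table lists differences alone, so a gene without a row may be open or closed. In pooled cells, more cells with an open site and a wider opening in each cell cannot be told apart.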

How the data were processed

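LT-HSCs were sorted from marrow and tagmented with an ATAC-Seq kit, with 12 PCR cycles in total. The authors checked reads with FastQC, trimmed them with Trimmomatic, used Bowtie2 for alignment and sambamba for duplicate removal, called peaks with MACS2, and tested the peaks in DiffBind with DESeq2. Tool versions are not given in the sources used here. The deposited values per library are a scaled signal, and dividing them by 1 step per library gave whole numbers within 0.006 in 100% of peaks. Whether a step is a read was not established. The deposited columns of log2 level and fold, p-value and FDR hold the authors' own comparison and were not used. The submitters' processing notes name mm9, but 5330 of 5332 gene identifiers were found in GENCODE M21 and the gene start and end were identical in 96.6%, hence GRCm38 sequence and basic transcripts were used.

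All 5332 peaks were tested in limma on log2(level + 1), without a replicate block, with Benjamini-Hochberg adjustment, since the values are scaled. The planned count test was not run. On the authors' scale limma gave every peak the same standard error, pooled over all peaks from 2 pools per genotype. A p-value there follows the size of the change and does not measure the spread of its own peak. After centring the standard errors differed between peaks. An exact permutation test of 2 against 2 cannot give a p below 0.333. The fit was tested on simulated data with 200 of 5332 peaks changed by 1 log2 unit, up or down, and no shared shift. It recovered 99.0% of the changed peaks and called 0.136% of the others. The real table was selected for differences and mostly higher in Sin3B-/-, so this result says nothing about its calls. Members and gene lists were chosen with earlier results of these data known. The sequence of 1 further peak is not reported here. All 25 peaks of the members were named, and members without a peak were described by their closest differential peak. In the other lists the peaks with the largest and smallest change were eligible for naming. Same-numbered libraries came from different mice, and the correlation of their deviations from the genotype means was -0.10. Software was R 4.3.3, limma 3.58.1, Python 3.11.15, numpy 2.4.6, pandas 2.3.3, scipy 1.17.1, matplotlib 3.10.9 and pysam 0.24.0.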

Additional observations from a re-analysis of the deposited data

How the results depend on the processing

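Pseudocounts of 0.5 and 5, a minimum mean level of 50 (24 peaks left) and a replicate block left the direction and call of every programme peak as they were. With the replicate block all 25 peaks were called higher, at a standard error of 0.247. With libraries centred on the table median, the table's higher calls went from 5103 to 374 and the programme's from 25 to 0. The median change then was 0.0033 for the programme, 0.079 for myeloid, -0.055 for erythroid and 0.030 for megakaryocyte peaks, and 0.0054 for the table. Centring turned 12 of the 25 changes negative, to -0.18 in Spi1 (the peak over the first exon), -0.21 in Cebpe, -0.15 in Klf1, -0.10 in the strongest peak of Zfpm1, -0.055 in Nfia, -0.085 in the stronger peak of Bach1, -0.10 in Ank1, -0.053 and -0.055 in Epb41, -0.077 in the stronger peak of Pf4, and -0.0055 and -0.10 in Itga2b. Leaving out 1 library, which leaves 1 in its genotype and assumes that it varies like the others, gave 3121 to 5100 higher calls over the table, with 3121 without Sin3B-/- replicate 2, and 17 to 25 over the programme. After centring it gave 166 to 381 in place of 374, with 166 when Sin3B-/- replicate 1 was left out and 190 when replicate 2 of that genotype was. The median change ranged from 0.64 to 0.92 over the programme and from 0.63 to 0.84 over erythroid peaks. An adjusted p under 0.01 left 147 of the 374 centred calls. A minimum level of 50 lowered the table's lower calls from 229 to 125 on both scales, with fewer peaks tested. Naming by nearest start site gave 1 programme peak called lower in place of 0, and after centring 1 higher and 1 lower. A promoter of 2500 bp raised the programme's promoter share from 20.0% to 44.0%, and a window of 200 bp lowered the RUNX share from 4.0% to 0%, the PU.1 share from 8.0% to 4.0%, and the GATA and C/EBP shares from 24.0% to 16.0% each (13.7% and 6.96% of the table). The planned edgeR count tests were not run, because the steps of the scaled values were not established as whole reads.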
